A study of Arabidopsis thaliana with 12 samples.

Results

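The genes described here are 38 *Arabidopsis* genes of salicylic acid (SA) synthesis and immunity, out of 26245 gene models counted by RNA-seq in whole seedlings. They were chosen by function, but with the measured fold changes of these same libraries on treatment with dexamethasone (DEX) already known, so the DEX responses given below describe the genes and are no test of the list. All 38 are in the count table. After the requirement of at least 1 CPM (the count relative to the size of its library) in 3 or more libraries, 32 of them were among the 19961 models tested. *NIMIN1*, *ALD1*, *PNP-A*, *WRKY62*, *WRKY38* and *PR1* were not, and *LURP1* and *AIG1* met the requirement in exactly 3 libraries.

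SA is the plant hormone of defence against pathogens that feed on living tissue. In *Arabidopsis* most of it is made from isochorismate, which ICS1 forms in the chloroplast, EDS5 exports and PBS3 joins to glutamate. The transcription factors SARD1 and CBP60g switch these genes on, the EDS1 and PAD4 proteins pass immune signals to them, and SA is read by the NPR proteins, which act with TGA and WRKY factors on targets such as the *PR* genes. RVE8 is a MYB-like factor of the circadian clock that binds the evening element (EE) in promoters of evening genes.

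Each group had 3 libraries, and each library came from about 30 seedlings 7 days old, grown in 12 hr light and 12 hr dark on medium with 3% sucrose. *rve8* seedlings carry the *rve8-1* mutation, and *RVE8:GR* seedlings carry *rve8-1* and a fusion of RVE8 to the glucocorticoid receptor (GR) under the *RVE8* promoter, which DEX lets into the nucleus. Plants received DEX or solvent alone (mock) at ZT4, 4 hr after lights on, and were frozen 4 hr later. The sample labels give the dose as 30 mM and the methods as 30 µM. All plants lack normal *RVE8*, so *rve8* + DEX against *rve8* + mock measures the response to the steroid without the fusion.

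The libraries held 15975840 to 21713130 counts, so that 3 counts equal 0.139 to 0.182 CPM and lower values rest on fewer reads. *RVE8* itself had means of 1.12 ± 0.81 and 0.991 ± 0.37 CPM (SD, n = 3) in *rve8* + mock and *rve8* + DEX, and of 8.95 ± 0.73 and 5.67 ± 0.57 CPM in *RVE8:GR* + mock and *RVE8:GR* + DEX. Markers of several tissues were present in every library, among them *PYK10* of root and hypocotyl at 1466 to 2037 CPM, the phloem gene *SUC2* at 71.3 to 115 CPM and the guard cell gene *KAT1* at 16.5 to 25.9 CPM. Of the 10 markers, 3 were higher with DEX in *rve8* by the test used below, *LHCB1.3* of leaf mesophyll (0.32 ± 0.08 on the log2 scale), *ATML1* of the epidermis (0.27 ± 0.07) and *SUC2* (0.39 ± 0.07). In *RVE8:GR* 1 was, *SUC2* (0.45 ± 0.07). The root genes *PYK10* (-0.29 ± 0.07) and *COBL9* (-0.59 ± 0.18) were lower with DEX in *rve8* without overlap of the libraries but did not pass, with adjusted p of 0.0118 and 0.031 by the same test. The root hair gene *EXP7* overlapped there (-0.16 ± 0.20, adjusted p = 0.668 by the same test). The guard cell genes *KAT1* (0.21 ± 0.12) and *MYB60* (0.21 ± 0.12) were higher with DEX in *rve8* without overlap. They did not pass, with adjusted p of 0.303 and 0.268 by the same test. In *RVE8:GR* the seed storage gene *SESA1* was lower with DEX without overlap (-1.41 ± 0.37) but did not pass (adjusted p = 0.028 by the same test). *LHCB1.3*, raised in *rve8*, was lower there without overlap (-0.11 ± 0.08) and did not pass (adjusted p = 0.511 by the same test). The part of these shifts in the DEX responses below was not tested. In such whole-seedling RNA a change in the number of cells of a type and a change in RNA per cell cannot be told apart.

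Promoters of 4 genes are shown, chosen for the values of these genes given below, and no result below rests on the motifs. *PR5* was the most clearly raised by DEX in both lines and holds an EE, *SARD1* was raised in *rve8* and holds several of the motifs, and *PR2* and *LURP1* were among the genes with the most uneven libraries. Each sequence is the 250 bases before the annotated start in the RefSeq annotation of TAIR10.1, read from 5′ to 3′ on the strand of the gene. Capitals mark the core of the W-box bound by WRKY factors (TTGAC), the element bound by TGA factors (TGACG) and the short EE (AAATATCT), on either strand.
PR5, chr1:28177420-28177669, forward strand: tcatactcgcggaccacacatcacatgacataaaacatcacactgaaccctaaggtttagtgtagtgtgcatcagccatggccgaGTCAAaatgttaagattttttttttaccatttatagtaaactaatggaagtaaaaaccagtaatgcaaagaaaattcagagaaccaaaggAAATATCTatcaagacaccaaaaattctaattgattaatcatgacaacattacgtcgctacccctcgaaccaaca
SARD1, chr1:27749249-27749498, reverse strand: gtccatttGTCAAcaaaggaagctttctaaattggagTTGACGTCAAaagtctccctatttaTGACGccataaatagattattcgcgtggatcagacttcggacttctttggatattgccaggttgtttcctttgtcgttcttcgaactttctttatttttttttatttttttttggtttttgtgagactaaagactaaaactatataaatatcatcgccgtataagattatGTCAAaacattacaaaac
PR2, chr3:21189860-21190109, reverse strand: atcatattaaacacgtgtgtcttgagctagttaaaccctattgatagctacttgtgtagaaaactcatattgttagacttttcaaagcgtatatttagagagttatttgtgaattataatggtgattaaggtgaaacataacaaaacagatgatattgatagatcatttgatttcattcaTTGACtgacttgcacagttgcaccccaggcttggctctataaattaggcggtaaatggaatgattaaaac
LURP1, chr2:6213722-6213971, forward strand: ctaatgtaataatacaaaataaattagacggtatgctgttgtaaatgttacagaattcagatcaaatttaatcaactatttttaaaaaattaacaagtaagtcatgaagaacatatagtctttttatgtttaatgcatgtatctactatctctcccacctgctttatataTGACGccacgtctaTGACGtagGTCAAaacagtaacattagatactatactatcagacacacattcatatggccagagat

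The *PR5* sequence holds a W-box core 165 to 161 bases before the start and a short EE 75 to 68 bases before it. The *SARD1* sequence holds 4 W-box cores and 3 TGA elements. In the block of capitals 213 to 204 bases before its start, 2 of the W-box cores and 2 of the TGA elements overlap. The *PR2* sequence holds a single W-box core, 70 to 66 bases before the start. *LURP1* has a W-box core 58 to 54 bases before its start and TGA elements 80 to 76 and 66 to 62 bases before it. Across all 38 genes, 55.3% had a W-box core in this window, against 44.7% of the 25258 models with a promoter. For the longer W-box (TTGACC or TTGACT) the shares were 26.3% and 28.3%, for the TGA element 26.3% and 19.1%, and for the G-box (CACGTG) 5.26% and 7.03%. The short EE was found in 2 of the 38, *PR5* and *NIMIN1*, or 5.26%, against 4.82% of all models. These matches are letters in a window and were not tested as binding sites.

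A set of 3 libraries stood apart from the other 9 in 6 of the genes. The 3 were *RVE8:GR* + mock replicate 3 and *rve8* + DEX replicates 1 and 3. For the genes chosen at the outset, calls for DEX against mock are given below with and without them where that changes a call. Calls of related genes outside that choice are given with all libraries only. *PR1* (AT2G14610), an antimicrobial protein widely used as a marker of SA responses, was at 0.971, 0.604 and 0.900 CPM in these 3 libraries in that order, from 17, 11 and 18 reads. It was at 0.121 CPM in *rve8* + mock replicate 2, from 2 reads, at 0.0578 CPM in *rve8* + DEX replicate 2, from 1 read, and had 0 reads in the other 7, *RVE8:GR* + DEX included. *PR2* (AT3G57260), a secreted glucanase, was at 9.88, 3.85 and 14.6 CPM in the 3 libraries and at 1.68 CPM or less in the other 9, of which *rve8* + DEX replicate 2 was the highest. *LURP1* (AT2G14560), a gene named for its induction by a downy mildew, was at 8.23, 4.18 and 9.50 CPM against at most 0.462 CPM. *AIG1* (AT1G33960), a GTP-binding protein gene induced in bacterial infection, was at 9.14, 7.20 and 9.65 CPM against at most 0.788 CPM. These genes were thus low in all libraries of *rve8* + mock and *RVE8:GR* + DEX, and uneven within the other 2 groups. The split was weaker for *PNP-A* (AT2G18660), which encodes a small secreted peptide (0.628, 0.879 and 1.90 CPM against at most 0.602), and for the Nudix hydrolase gene *NUDT6*, AT2G04450 (3.71, 5.05 and 4.20 CPM against at most 3.41).

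**Figure D1:**
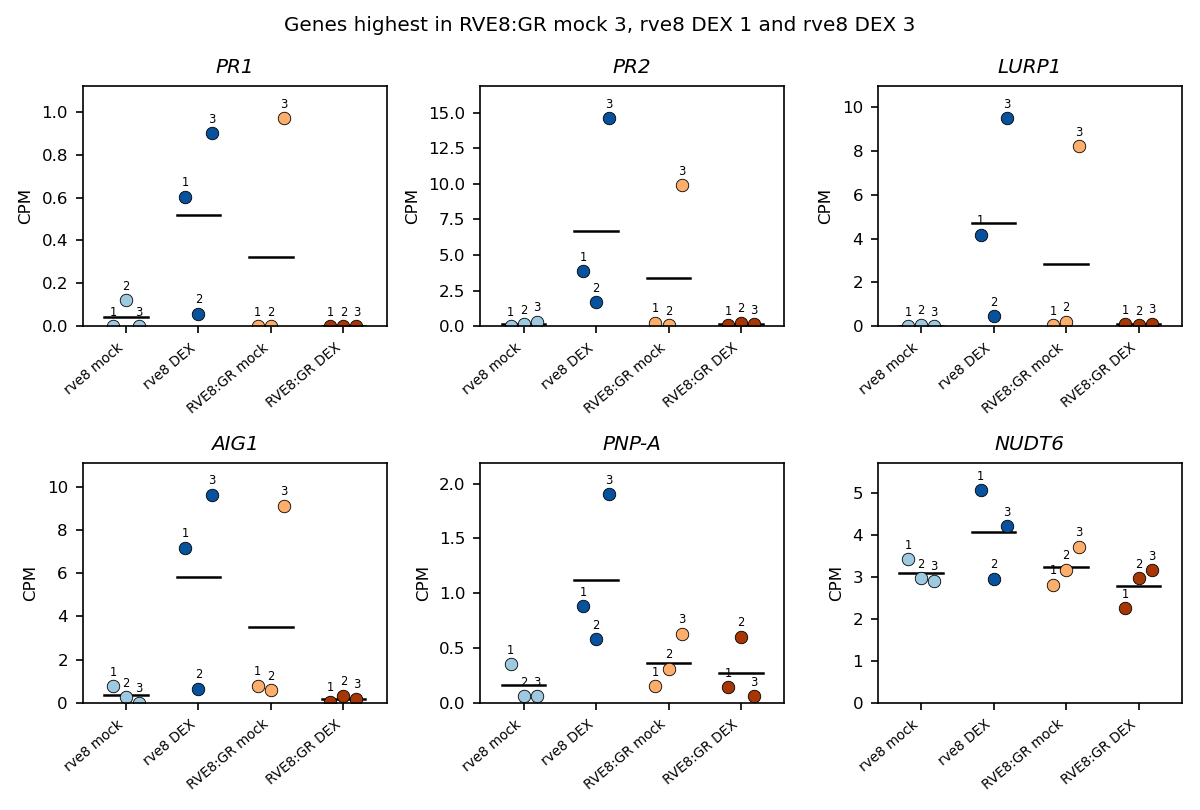
Level of 6 genes in each of the 12 libraries, in CPM on linear axes that start at 0. Points are libraries with their replicate number, and bars are the mean of the 3 libraries of a group. *RVE8:GR* + mock replicate 3 and *rve8* + DEX replicates 1 and 3 lie above all other libraries in every panel, as for *PR2* at 9.88, 3.85 and 14.6 CPM.

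The spread of *PR2*, *LURP1* and *AIG1* within groups left them outside the threshold, in every comparison. The threshold was an adjusted p under 0.01 (Benjamini-Hochberg, over all models) in the quasi-likelihood test of edgeR. For DEX against mock in *rve8*, the adjusted p of this test was 0.128 for *PR2* and 0.137 for *AIG1*, and in *RVE8:GR* it was 0.312 and 0.255. In the exact test of edgeR, the kind of test the authors used (here with 50 prior degrees of freedom), all 3 genes passed, with DEX higher than mock in *rve8* and lower than mock in *RVE8:GR*. For *PR2* these adjusted p were 4.6e-10 and 2.37e-07.

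In *rve8* seedlings, DEX raised 10 of the 32 genes tested, namely *PBS3*, *SARD1*, *PR5*, *CBP60g*, *ACD6*, *FMO1*, *WRKY46*, *WRKY70*, *PAD4* and *ICS1*. Of all 19961 models, 3.96% were called higher in this comparison and 1.57% lower. Since the genes were chosen with this response known, nothing is read from the difference between these shares. DESeq2 called 12 higher and the exact test 15. Shares of all models were taken only for quasi-likelihood calls at the threshold with all libraries. Counts by other tests, at an unadjusted p or without some libraries, here and below, have no such share beside them. The quasi-likelihood test called 0 of the genes lower, as did DESeq2 and the exact test, and 1 was lower at an unadjusted p under 0.05. The median log2 fold change of the 32 genes was 0.36, against -0.01 for all models. In *RVE8:GR* seedlings, DEX raised 4 of the 32, *PR5*, *PBS3*, *CBP60g* and *ICS1*, where 2.07% of all models were called higher and 1.36% lower. DESeq2 called 4 higher there and the exact test 5. The median log2 fold change there was 0.10, against 0.00 for all models. By the quasi-likelihood test 0 were called lower in *RVE8:GR*, with 1 at an unadjusted p under 0.05, 0 by DESeq2 and 3 by the exact test (*PR2*, *LURP1* and *AIG1*). When the 3 libraries that stood apart were left out, with *rve8* + DEX represented by replicate 2 alone and assumed to vary like the other groups, the count in *rve8* was 5, of *PR5*, *PBS3*, *CBP60g*, *ACD6* and *WRKY70*.

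**Figure D2:**
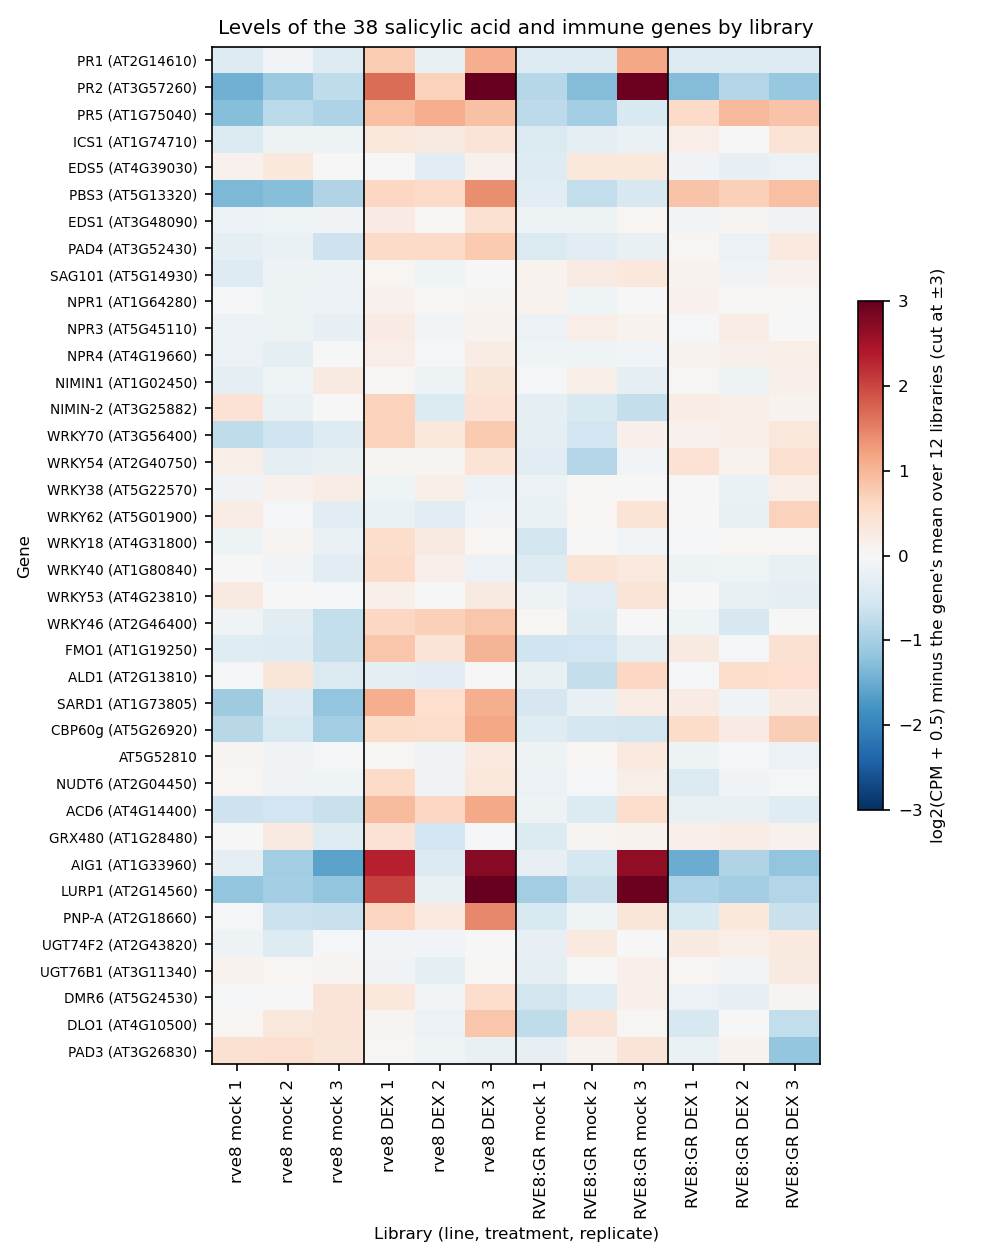
Heat map of the 38 genes (rows) in the 12 libraries (columns, with black lines between groups), as log2(CPM + 0.5) minus the mean of the gene over the 12 libraries and limited to 3 in either direction. Red is above the mean of the gene and blue below, and the darkest red cells are *PR2*, *LURP1* and *AIG1* in *RVE8:GR* + mock replicate 3 and *rve8* + DEX replicates 1 and 3.

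Among the genes of SA synthesis, 2 of 3 were raised by DEX in both lines. *ICS1* (AT1G74710), the isochorismate synthase gene, was at 14.3, 17.1 and 17.2 CPM in *rve8* + mock, 24.5, 23.3 and 25.4 in *rve8* + DEX, 14.2, 15.7 and 16.6 in *RVE8:GR* + mock and 22.2, 19.1 and 25.9 in *RVE8:GR* + DEX. The mock and DEX libraries did not overlap in either line, and the log2 fold change was 0.59 ± 0.11 (SE, n = 3 libraries per group) in *rve8* and 0.53 ± 0.11 in *RVE8:GR*. *PBS3* (AT5G13320) was at 2.41, 2.54 and 3.44 CPM in *rve8* + mock and 10.7, 10.5 and 18.9 in *rve8* + DEX. In *RVE8:GR* it was at 5.32, 3.94 and 4.74 CPM after mock and 12.7, 11.6 and 13.3 after DEX. This was the largest log2 fold change among the 10 raised genes in *rve8*, 2.26 ± 0.23, and 1.42 ± 0.21 in *RVE8:GR*, with no overlap of mock and DEX libraries. The exporter gene *EDS5* (AT4G39030) did not pass, with log2 fold changes of -0.20 ± 0.17 in *rve8* and -0.30 ± 0.17 in *RVE8:GR*, and stayed between 8.23 and 13.6 CPM in the 12 libraries. Without the 3 libraries that stood apart, *ICS1* no longer passed in *rve8* (log2 fold change 0.52, adjusted p = 0.0968) or in *RVE8:GR* (0.58, adjusted p = 0.0119) by the same test.

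The transcription factors upstream of *ICS1* were both raised in *rve8*. *SARD1* (AT1G73805) was at 0.881, 1.69 and 0.770 CPM in *rve8* + mock and 5.66, 3.58 and 5.65 in *rve8* + DEX, and at 1.53, 1.97 and 2.86 in *RVE8:GR* + mock and 2.90, 2.18 and 2.98 in *RVE8:GR* + DEX. The *rve8* groups were apart and the *RVE8:GR* groups overlapped, with log2 fold changes of 2.16 ± 0.30 and 0.35 ± 0.28. Without the 3 libraries that stood apart, the value of *SARD1* in *rve8* was 1.68 and no longer passed (adjusted p = 0.0239 by the same test). *CBP60g* (AT5G26920), its paralogue, was at 8.05, 10.5 and 6.87 CPM in *rve8* + mock, 21.6, 21.2 and 33.4 in *rve8* + DEX, 11.3, 10.3 and 9.77 in *RVE8:GR* + mock and 21.6, 17.3 and 24.6 in *RVE8:GR* + DEX. DEX libraries were above mock libraries in both lines, by 1.59 ± 0.21 and 1.01 ± 0.20 on the log2 scale. The call of *CBP60g* in *RVE8:GR* was at the edge of the threshold (adjusted p = 0.00985 by the quasi-likelihood test) and held in 10 of 21 alternative settings, with adjusted p from 3.56e-10 to 0.054. Both *CBP60g* and *ICS1* lost their call in *RVE8:GR* when *RVE8:GR* + DEX replicate 1 or 3, or *RVE8:GR* + mock replicate 1 or 2, was left out.

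In the EDS1 hub, whose lipase-like proteins work in pairs, *PAD4* (AT3G52430) was raised in *rve8*. It was at 8.52, 9.02 and 6.64 CPM in *rve8* + mock, 15.8, 15.8 and 18.5 in *rve8* + DEX, 7.59, 8.39 and 8.86 in *RVE8:GR* + mock and 10.8, 9.22 and 12.9 in *RVE8:GR* + DEX. DEX was above mock in every library of both lines, by 1.05 ± 0.14 and 0.41 ± 0.14 on the log2 scale, and the second did not pass. The call in *rve8* was lost without the 3 libraries, at nearly the same value (0.97, adjusted p = 0.0116). *EDS1* (AT3G48090) was at 18.1, 18.8 and 19.1 CPM in *rve8* + mock, 24.7, 21.3 and 28.4 in *rve8* + DEX, 18.4, 18.5 and 21.5 in *RVE8:GR* + mock and 19.6, 22.01 and 19.3 in *RVE8:GR* + DEX. Its log2 fold change in *rve8*, 0.41 ± 0.10, lay just outside the threshold (adjusted p = 0.0114 by the quasi-likelihood test). The gene passed by DESeq2 (adjusted p = 0.00697) and by the exact test (adjusted p = 0.00484). Without the 3 libraries that stood apart, the value of *EDS1* in *rve8* was 0.19. *SAG101* (AT5G14930), the other partner of EDS1, had log2 fold changes of 0.22 ± 0.12 and -0.19 ± 0.11.

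Among the SA receptors and their partners, the *NPR* genes varied little. *NPR1* (AT1G64280), a receptor and coactivator of SA responses, was at 22.7, 20.9 and 20.6 CPM in *rve8* + mock, 25.8, 24.0 and 24.9 in *rve8* + DEX, 25.1, 21.3 and 23.4 in *RVE8:GR* + mock and 25.7, 24.0 and 24.1 in *RVE8:GR* + DEX. Its highest library was 1.26 times its lowest, the smallest such ratio among the genes with reads in every library, and its DEX response did not pass (0.22 ± 0.09 in *rve8*, 0.08 ± 0.08 in *RVE8:GR*). The receptors and corepressors *NPR3* (AT5G45110) and *NPR4* (AT4G19660) had log2 fold changes of 0.31 ± 0.11 and 0.28 ± 0.10 in *rve8*, and 0.03 ± 0.11 and 0.26 ± 0.09 in *RVE8:GR*, all outside the threshold. *NIMIN-2* (AT3G25882), whose protein binds NPR1, was at 0.514 to 2.20 CPM, with a log2 fold change of 0.95 ± 0.38 in *RVE8:GR* that did not pass, and the glutaredoxin gene *GRX480* (AT1G28480) at 1.85 to 4.18 CPM. *NIMIN1* (AT1G02450), of the same family, stayed at 0.550 CPM or less.

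**Figure D3:**
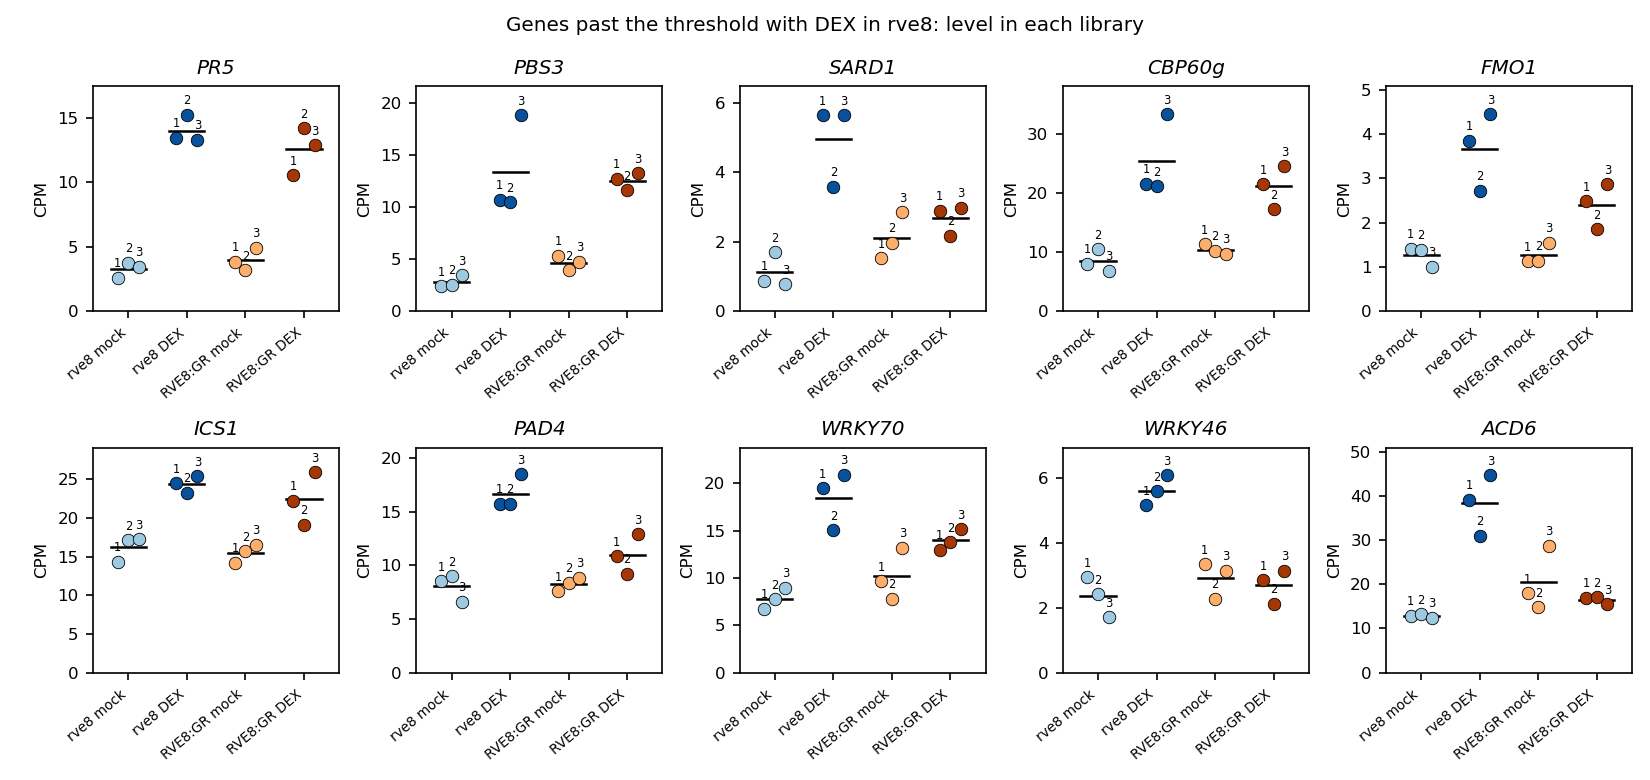
Level of the 10 genes past the threshold with DEX in *rve8*, in CPM on linear axes that start at 0. Points are libraries with their replicate number, and bars are the mean of the 3 libraries of a group. *PR5* is near 14 CPM in *rve8* + DEX and between 10.6 and 14.2 CPM in *RVE8:GR* + DEX, while *ACD6* reaches 31.0 to 44.7 CPM in *rve8* + DEX and 15.4 to 17.0 CPM in *RVE8:GR* + DEX.

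Of the 8 WRKY factors, 6 were tested and *WRKY70* and *WRKY46* were raised in *rve8*. *WRKY70* (AT3G56400), which acts both below SA and as a brake on its synthesis, was at 6.76, 7.75 and 8.95 CPM in *rve8* + mock, 19.5, 15.0 and 20.9 in *rve8* + DEX, 9.66, 7.82 and 13.2 in *RVE8:GR* + mock and 13.0, 13.8 and 15.1 in *RVE8:GR* + DEX. The *rve8* groups were apart (1.24 ± 0.17 on the log2 scale) and the *RVE8:GR* groups overlapped through mock replicate 3 (0.45 ± 0.16, not past the threshold). Without the 3 libraries that stood apart, *WRKY70* had 0.94 in *rve8* and 0.67 in *RVE8:GR*, and the value in *RVE8:GR* then passed. Its response in *RVE8:GR* minus that in *rve8* was -0.79 ± 0.24 with all libraries and -0.27 without the 3. There *rve8* + DEX is replicate 2 alone. *WRKY46* (AT2G46400) was at 2.94, 2.42 and 1.72 CPM in *rve8* + mock, 5.16, 5.61 and 6.10 in *rve8* + DEX, 3.35, 2.28 and 3.14 in *RVE8:GR* + mock and 2.85, 2.13 and 3.15 in *RVE8:GR* + DEX. It was high in *rve8* + DEX and alike in the other 3 groups, with log2 fold changes of 1.25 ± 0.22 and -0.12 ± 0.22. Without the 3 libraries the value in *rve8* was again 1.25 but did not pass (adjusted p = 0.0395). *WRKY54* (AT2G40750), a close relative of *WRKY70*, had a larger value in *RVE8:GR* (0.86 ± 0.23, adjusted p = 0.0285 by the same test) than in *rve8* (0.34 ± 0.24), and neither passed. The repressors *WRKY18* (AT4G31800) and *WRKY40* (AT1G80840) were the most abundant WRKY genes per length, at means of 17.1 and 17.3 CPM per kb of cDNA over the 12 libraries. Their log2 fold changes were 0.38 ± 0.14 and 0.35 ± 0.24 in *rve8*, and *WRKY53* (AT4G23810), linked to leaf senescence, had 0.08 ± 0.22. *WRKY38* (AT5G22570) and *WRKY62* (AT5G01900), negative regulators of basal defence, were at or below 0.415 and 0.515 CPM in every library.

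In the pipecolate route, which makes a mobile signal of systemic resistance, *FMO1* (AT1G19250) was raised in *rve8*. This flavin monooxygenase gene was at 1.41, 1.39 and 1.01 CPM in *rve8* + mock, 3.85, 2.72 and 4.45 in *rve8* + DEX, 1.13, 1.14 and 1.54 in *RVE8:GR* + mock and 2.48, 1.85 and 2.86 in *RVE8:GR* + DEX. Mock and DEX did not overlap in either line, and the log2 fold change was 1.53 ± 0.27 in *rve8* and 0.91 ± 0.27 in *RVE8:GR*, the second with an adjusted p of 0.0476 by the quasi-likelihood test. Without the 3 libraries the value in *rve8* was 1.09 and did not pass (adjusted p = 0.136). The aminotransferase gene *ALD1* (AT2G13810), which starts the route, reached at most 1.03 CPM. AT5G52810, annotated as an NAD(P)-binding protein, was at 15.6 to 21.8 CPM and did not pass (0.10 ± 0.12 and -0.20 ± 0.12).

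*PR5* (AT1G75040), a thaumatin-like protein gene, was the member of the *PR* group whose DEX response was even across libraries. It was at 2.59, 3.75 and 3.44 CPM in *rve8* + mock, 13.5, 15.3 and 13.3 in *rve8* + DEX, 3.84, 3.16 and 4.91 in *RVE8:GR* + mock and 10.6, 14.2 and 12.9 in *RVE8:GR* + DEX. All DEX libraries were above all mock libraries, 4.29-fold in *rve8* (2.10 ± 0.17 on the log2 scale) and 3.17-fold in *RVE8:GR* (1.67 ± 0.16). Both calls held in all 21 alternative settings. *PR2* and *PR1*, usually described as responding to SA together with *PR5*, had the uneven libraries given above.

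*ACD6* (AT4G14400), an ankyrin-repeat membrane protein gene that promotes SA accumulation, had the lowest adjusted p in the comparison of the DEX responses of *rve8* and *RVE8:GR*, given below. It was at 12.9, 13.2 and 12.4 CPM in *rve8* + mock, 39.1, 31.0 and 44.7 in *rve8* + DEX, 17.9, 14.8 and 28.7 in *RVE8:GR* + mock and 16.9, 17.0 and 15.4 in *RVE8:GR* + DEX. Thus *rve8* + DEX was above every other library, and *RVE8:GR* + mock replicate 3 came next. The log2 fold change was 1.58 ± 0.22 in *rve8* and -0.31 ± 0.22 in *RVE8:GR*. The call in *rve8* was lost without *rve8* + mock replicate 1 (adjusted p = 0.0126), with the log2 fold change still at 1.58. *PAD3* (AT3G26830), the last enzyme gene of camalexin synthesis, moved the other way in *rve8*, from 7.11 to 7.69 CPM after mock to 4.50 to 5.55 CPM after DEX, but did not pass (-0.58 ± 0.25, adjusted p = 0.145 by the same test). In *RVE8:GR* its log2 fold change was -0.45 ± 0.25, with overlap of the libraries, and did not pass.

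The genes that conjugate or hydroxylate SA included the most abundant of the 38. *UGT74F2* (AT2G43820), an SA glucosyltransferase, had a mean of 81.9 CPM per kb over the 12 libraries and *UGT76B1* (AT3G11340), which glucosylates SA and a related defence metabolite, 27.4 CPM per kb, against 9.26 for *ICS1* and 0.245 for *PR1*. They ranged from 107 to 174 CPM and from 38.2 to 57.0 CPM. The log2 fold changes of *UGT74F2* with DEX were 0.13 ± 0.11 in *rve8* and 0.21 ± 0.11 in *RVE8:GR*. Those of *UGT76B1* were -0.21 ± 0.11, without overlap of the libraries, and 0.13 ± 0.11. After DEX, *UGT74F2* was higher in all *RVE8:GR* libraries than in all *rve8* libraries (0.31 ± 0.11). None of these values passed. The SA hydroxylase genes *DMR6* (AT5G24530, 0.14 ± 0.19 in *rve8*) and *DLO1* (AT4G10500, 0.08 ± 0.41) did not pass either.

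The response of the 2 lines to DEX was compared directly as an interaction, the response in *RVE8:GR* minus that in *rve8*. Its median over the 32 genes was -0.38 on the log2 scale, against 0.01 over all models. When the 3 libraries that stood apart were left out, *PR2*, *LURP1* and *AIG1* were no longer tested, and the median of the other 29 was -0.03, against -0.30 for the same 29 genes with all libraries. By the quasi-likelihood test 0 genes passed in either direction, where 0.24% of all models were called higher and 0.947% lower. At an unadjusted p under 0.05, 11 were lower and 0 higher, and DESeq2 called 6 lower (*ACD6*, *SARD1*, *WRKY46*, *PR2*, *LURP1* and *AIG1*) and 0 higher. The share of all models was not taken for these counts. The interaction was -1.89 ± 0.31 for *ACD6* (adjusted p = 0.0104 by the quasi-likelihood test), -1.37 ± 0.31 for *WRKY46* (adjusted p = 0.0168) and -1.81 ± 0.41 for *SARD1* (adjusted p = 0.0171). Without the 3 libraries *rve8* + DEX is replicate 2 alone, which is assumed to vary like the other groups. With all libraries the SD of *ACD6* was 6.9 CPM in *rve8* + DEX and 7.3 in *RVE8:GR* + mock. It was 0.41 in *rve8* + mock and 0.90 in *RVE8:GR* + DEX. No call is therefore read from the fit without the 3 libraries. The interaction values were then -1.27 for *ACD6*, -1.07 for *SARD1* and -1.31 for *WRKY46*. Of the 4 genes raised in both lines, *PR5* had an interaction of -0.44 ± 0.24, *PBS3* -0.84 ± 0.31, *CBP60g* -0.58 ± 0.29 and *ICS1* -0.06 ± 0.15, all outside the threshold. A single gene passed when *RVE8:GR* + mock replicate 2 or 3, *rve8* + DEX replicate 2 or *rve8* + mock replicate 2 was left out. This gene was *ACD6* or *SARD1*, depending on the library. The part of the 3 libraries in these differences was not tested beyond leaving them out.

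**Figure D4:**
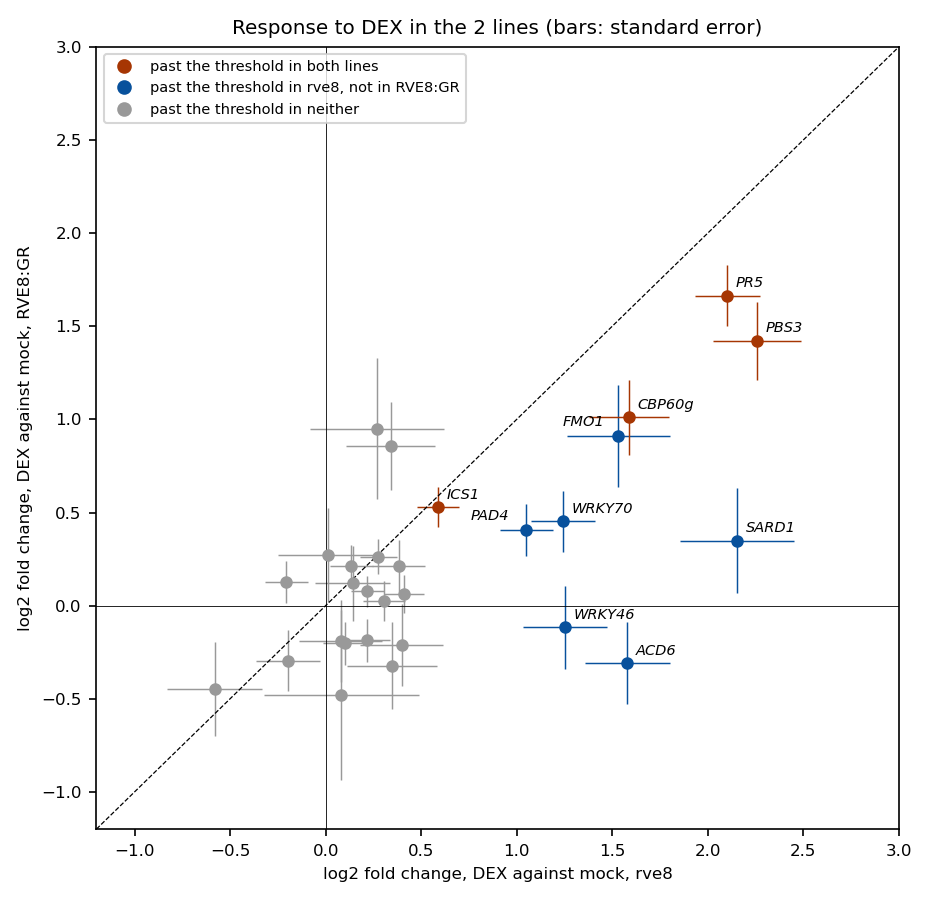
Response to DEX as a log2 fold change, in *RVE8:GR* (vertical) and in *rve8* (horizontal), for 29 genes, with standard errors as bars and the line of equality dashed. *PR2*, *LURP1* and *AIG1*, the 3 genes tested whose libraries were the most uneven, lie off the scale and are not drawn. *ACD6*, *WRKY46* and *SARD1* lie far below the line, and *ICS1* lies near it at 0.59 and 0.53.

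The lines were also compared within each treatment, using the same libraries again. After mock treatment, 0 of the 32 genes differed between *RVE8:GR* and *rve8* by the quasi-likelihood test, where 1.31% of all models were called higher in *RVE8:GR* and 0.416% lower. At an unadjusted p under 0.05, 6 were higher and 1 was lower. DESeq2 called 0 in either direction, and the exact test called 4 higher (*AIG1*, *LURP1*, *PR2* and *ACD6*) and 0 lower. For *AIG1*, *LURP1* and *PR2* this rests on *RVE8:GR* + mock replicate 3 alone, at 9.14, 8.23 and 9.88 CPM. Replicates 1 and 2 of that group were at most at 0.788, 0.207 and 0.246 CPM. The lowest adjusted p was that of *SAG101*, which was at 7.76, 9.14 and 9.12 CPM in *rve8* + mock and 11.2, 12.3 and 12.9 in *RVE8:GR* + mock, without overlap (0.48 ± 0.12 on the log2 scale, adjusted p = 0.0203 by the quasi-likelihood test). After DEX, 3 genes were lower in *RVE8:GR* than in *rve8*, where 1.89% of all models were called higher and 2.32% lower. These were *ACD6* (-1.22 ± 0.21), *WRKY46* (-1.06 ± 0.21) and *PAD4* (-0.61 ± 0.13), and for each all 3 *RVE8:GR* + DEX libraries lay below all 3 *rve8* + DEX libraries. For *ACD6* the means were 16.4 ± 0.90 and 38.3 ± 6.9 CPM (SD, n = 3). The test called 0 higher, as did DESeq2 and the exact test, with 1 at an unadjusted p under 0.05. Without the 3 libraries, the values were -0.91 for *ACD6*, -1.05 for *WRKY46* and -0.53 for *PAD4*. That fit has 1 library of *rve8* + DEX and takes its spread from the other groups, so no call is read from it. Leaving out single libraries gave 0 to 3 calls. Without *RVE8:GR* + DEX replicate 2 or *rve8* + DEX replicate 3, 0 were left. Without *RVE8:GR* + DEX replicate 1 or *rve8* + DEX replicate 1, 1 was left. The call of *ACD6* was the least stable and held in 4 of these 12 fits, that of *PAD4* in 7 and that of *WRKY46* in 10.

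Lists of related genes that are not among the 38 gave the following counts by the same test with all libraries. They are to be read against the 3.96% of all models called higher in *rve8* and the 2.07% in *RVE8:GR*. Whether the calls in these lists hold without the libraries that stood apart was not tested. Of 17 other genes of SA metabolism and signalling tested, 5 were raised by DEX in *rve8*, led by *BON1* (0.50 ± 0.09), a calcium-binding protein gene that restrains immunity, and *ADR1-L1* (0.47 ± 0.07), a helper immune receptor gene. None of the 17 passed in *RVE8:GR* (3 higher and 1 lower at an unadjusted p under 0.05, 2 higher by DESeq2 and 0 by the exact test). For the 7 TGA factors, the quasi-likelihood test, DESeq2 and the exact test each called 0 in both DEX comparisons, with 0 at an unadjusted p under 0.05. Of 20 genes of pattern recognition and early immune signalling, 4 rose with DEX in *rve8*, led by *NHL10* (1.16 ± 0.25), and 2 in *RVE8:GR*, *NHL10* (1.45 ± 0.24) and the receptor gene *EFR* (0.85 ± 0.15). *RBOHD*, the oxidase of the immune oxidative burst, rose in *rve8* (0.44 ± 0.06) and had an interaction of -0.43 ± 0.09 (adjusted p = 0.0075).

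Of the 5 listed genes of the camalexin route or linked to it, other than *PAD3*, 4 were tested. *CYP79B2* and *CYP79B3*, which make its indole precursor, fell with DEX in both lines, by 0.53 and 0.55 on the log2 scale in *rve8* and by 0.52 and 0.58 in *RVE8:GR*, while *MYB51* rose in *rve8* (0.68 ± 0.13). *CYP71A12* did not pass, with log2 fold changes of 1.46 ± 0.35 in *rve8* and 1.57 ± 0.36 in *RVE8:GR* (adjusted p = 0.0308 and 0.0391 by the same test). DESeq2 and the exact test each called 2 of the 4 higher and 2 lower in *rve8*. In *RVE8:GR* each called 1 higher and 2 lower. Among 6 clock-linked regulators of SA genes, *CCA1* and *LHY* rose with DEX in *rve8* (0.88 ± 0.10 and 0.72 ± 0.17). *CCA1* had an interaction of -1.17 ± 0.15 (adjusted p = 8.71e-05). The RNA-binding protein gene *GRP7* rose in *RVE8:GR* (0.47 ± 0.08).

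Of the 50-base stretches in the cDNA of any of the 38 genes, at most 3.06% occurred in another cDNA.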

How the data were processed

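RNA was sequenced from 12 libraries of *Arabidopsis* seedlings, 3 in each of 4 groups taken from the sample labels. The deposited file is a single table by the authors that holds raw counts for each gene model. Per the submitters' processing notes and the methods, reads were processed with CASAVA 1.8, filtered by quality, mapped by BWA against representative cDNAs (TAIR10) and processed with SAMtools, and counts were taken from the reverse strand alone. The treatment of reads that match several genes equally is not given in the sources used here. Every count column was matched to a labelled sample. The table has 33457 blank cells, taken as counts of 0.

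Differences were tested on the counts by robust quasi-likelihood F tests (edgeR 4.0.16, R 4.3.3) with TMM factors, on models that reached 1 CPM in 3 or more libraries, all 4 groups together, with Benjamini-Hochberg adjustment over all 19961 models. Genes were called at an adjusted p under 0.01. The filter and threshold are those of the authors, who used the exact test. Standard errors were derived from the F statistic. CPM used TMM factors, and CPM per kb the cDNA length in TAIR10.1. Libraries are separate pools of seedlings. Genes and lists were chosen with earlier results of these data known. Values of each library are given for the genes called in any comparison and for *PR1*, *ICS1*, *EDS1*, *PAD4*, *NPR1*, *WRKY70* and *SARD1*, with up to 3 called genes named per list. Those of *PR2*, *LURP1*, *AIG1*, *PNP-A*, *NUDT6* and *SAG101* were added after they were seen. All 38 genes were matched to TAIR10.1. Figures used matplotlib 3.10.9 (Python 3.11.15).

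Alternatives were DESeq2 1.42.0, the exact test with 50 prior degrees of freedom, no TMM factors, upper-quartile factors, no filter, at least 10 counts in every library, the replicate number as a block, the groups compared alone, an adjusted p under 0.05, each library left out in turn, promoters with 50 bases after the start and, chosen after seeing the data, leaving out the 3 libraries with *PR2* above 2 CPM. The code was tested on simulated data. WRKY protein sequences were not analysed here.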

Additional observations from a re-analysis of the deposited data

How the results depend on the processing

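No call of the 38 genes changed sign under any alternative run. Of the 17 calls, DESeq2, the exact test, the filter of 10 counts in every library and the fits of the compared groups alone each kept 17, and the replicate block kept 16, losing *CBP60g* in *RVE8:GR*. Other scalings also kept 16 and no filter 15. Libraries with the same number were not shown to be paired (correlation of their deviations -0.083 to 0.209), and with the block 1 gene, *ACD6*, was lower in the interaction. Genes lower in the interaction numbered 6 by DESeq2, 2 with no filter, 3 at an adjusted p under 0.05 and 0 to 1 when each library was left out. The exact test and the fits of compared groups alone were not run for the interaction. Leaving out those 3 libraries gave 5 genes raised by DEX in *rve8* and 1 lower in *RVE8:GR* after DEX. The exact test gave 3 lower with DEX in *RVE8:GR*, 4 higher in *RVE8:GR* after mock and 7 lower after DEX. An adjusted p under 0.05 gave 1 higher after mock, and the compared groups alone 1 higher after DEX. When each library was left out, 2 to 4 genes were raised by DEX in *RVE8:GR*, 9 to 11 in *rve8*, and 0 to 3 were lower in *RVE8:GR* after DEX. The count of 2 was reached without *RVE8:GR* + DEX replicate 1 or 3 or *RVE8:GR* + mock replicate 1 or 2, and the count of 0 without *RVE8:GR* + DEX replicate 2 or *rve8* + DEX replicate 3. The cause of these moves was not tested. With 50 bases after the start included, 60.5% of the genes and 50.2% of all models had a W-box core. Reads limit the genes below about 1 CPM: *PR1* had at most 18 reads in a library.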

Other observations

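The split of *RVE8:GR* + mock replicate 3 and *rve8* + DEX replicates 1 and 3 from the other libraries was also looked for in all models, after the values of *PR2* had been seen. Of the 19961 models tested, 124 (0.621%) had at least 1 CPM in all 3 libraries and more there than in any of the other 9, of which 4 are among the 38 genes. In 12 models the lowest of the 3 libraries was more than 2 times the highest of the other 9, and in 4 of these more than 4 times. Besides *AIG1*, *LURP1* and *PR2*, the 12 include *PCC1*, a gene named for control by pathogens and the circadian clock, at 4.97, 6.65 and 5.70 CPM in the 3 libraries in the order above against at most 1.39 CPM. The ankyrin-repeat gene *ANK* (AT5G54610) was at 2.23, 2.14 and 2.65 CPM against at most 0.231 CPM. *WAK1*, a wall-associated receptor kinase gene, was at 34.5, 29.6 and 38.2 CPM against at most 12.8 CPM, and the receptor-like protein gene *RLP23* at 2.74, 3.24 and 3.40 CPM against at most 0.940 CPM. *RLP41* and *ARCK1* were also among the 12. These values describe the libraries, which were singled out by *PR2*, and what sets them apart was not tested.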
